A study of Mus musculus with 3 samples.

Results

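The genes described here are 35 genes of mitosis and cytokinesis, chosen by gene symbol from their known roles in cell division, out of 22068 genes with an expression value. They comprise the mitotic cyclins and Cdk1, the mitotic kinases, the chromosomal passenger complex, the spindle checkpoint with the anaphase-promoting complex, centromere and kinetochore proteins, spindle motors, chromosome structure proteins, and the cytokinesis machinery. All 35 were listed in the files, and all 35 had a mean of at least 1 RPKM, a read number scaled to the length of the transcript and to the mapped reads of the library, over the 3 libraries. The study compared C2C12 cells, a mouse myoblast line that leaves the cell cycle and forms myotubes in low serum, after lentiviral overexpression of the long non-coding RNA Linc-RAM, after lentiviral expression of a short hairpin RNA against Linc-RAM (knockdown), and after infection with the empty vector (control). All cells were selected with blasticidin as stable lines and were cultured for 12 h in differentiation medium with horse serum before polyA RNA was isolated. Each condition was 1 stable line and 1 library, the control library served both comparisons, and which of the designed hairpins the knockdown line carried was not given in the sources used here.

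A cell enters mitosis when Cdk1 bound to cyclin B phosphorylates its many substrates, and it leaves mitosis when the anaphase-promoting complex marks cyclin B and securin for destruction. Most genes of this program are transcribed in G2 and are silenced in resting cells by the DREAM complex, which is recruited through a promoter element called the cell cycle genes homology region (CHR), while the activating factor NF-Y binds CCAAT boxes nearby. In muscle, myoblasts withdraw from the cell cycle before they fuse, so that the mRNAs of dividing cells are lost as differentiation proceeds.

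The libraries differed in depth. The totals recovered from the RPKM values were 2105513 reads for overexpression, 1878146 reads for knockdown and 5130481 reads for the control. A member was represented by 11 to 700 recovered reads in the overexpression library, by 11 to 820 in the knockdown library and by 25 to 2183 in the control library. For 22 members these reads are lower estimates. Linc-RAM itself, listed as 2310015B20Rik, was represented by a single read with overexpression (1.07 RPKM) and was listed at 0 in knockdown and control cells, which is too little to check the labels. The 7 myoblast and muscle markers, among them desmin and Myod1, were present in each library and summed to 611 RPKM with overexpression, 230 RPKM with knockdown and 391 RPKM in the control. Markers of blood, endothelial and epithelial cells were listed at 0 or stood at a few reads. The 6 fibroblast genes summed to 162, 224 and 261 RPKM in overexpression, knockdown and control cells, mostly from collagen genes, and the 6 neuronal and glial genes summed to 149, 29.6 and 112 RPKM, all from Tubb3, Stmn2 and Nefl, with Gfap, Rbfox3 and Snap25 listed at 0. The part of these marker differences in the values below was not tested. In RNA from a whole culture, fewer dividing cells and less mitotic mRNA per cell cannot be told apart.

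The promoters are shown first because the regulation of these genes is known to pass through them. A RefSeq window of 300 bases (250 before and 50 after the transcription start, table build GRCm38.p6) was matched for 30 of the 35 members, and windows for Ccna2, Aurkb, Incenp, Tpx2 and Kif20a were not analysed here. The letters TTTGAA or TTCGAA, the CHR, were found on either strand in 25 of the 30 windows (83.3%), compared with 21.7% of the windows of 27025 genes. The letters CCAAT were found on either strand in 24 of the 30 windows (80%), compared with 41.1% of all genes. Both elements were present in 22 members (73.3%), compared with 9.65% of all genes. An E2F site, searched as TTTGGCGC, TTTCCCGC, GCGCGAAA or TTTGCCGC on either strand, was found in Cdk1 alone among the members (3.33%), against 2.60% of all genes. Birc5, Nuf2 and Nusap1 held none of these letters in the window, as did 45.8% of all genes. The CHR lay before the start in 11 members and the CCAAT box lay before the start in 24. A gene was counted when any of its windows held the letters, no searched motif contains another, and matches are letters only, since binding was not measured here.

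The following stretches before the RefSeq start, printed 5′ to 3′ in the direction of the gene with matches to these motifs in capitals, show the arrangement. The first 5 come from members with CHR letters before the start, and Ccnb1 is shown because it had the largest ratio of overexpression to control, so that the choice was made after the values were seen. Each was located on mm9 by exact match, and each was ended so that at most 30 of its bases lay in an annotated exon.
Cdk1, chr10:68815661-68815800, minus strand: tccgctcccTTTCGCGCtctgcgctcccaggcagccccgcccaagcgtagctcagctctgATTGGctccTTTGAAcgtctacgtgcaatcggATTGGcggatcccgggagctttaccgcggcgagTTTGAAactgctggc
Cdc20, chr4:118109949-118110088, minus strand: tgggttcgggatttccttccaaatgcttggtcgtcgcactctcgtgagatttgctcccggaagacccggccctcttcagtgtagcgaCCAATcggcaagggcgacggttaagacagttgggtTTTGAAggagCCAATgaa
Ube2c, chr2:164595289-164595427, plus strand: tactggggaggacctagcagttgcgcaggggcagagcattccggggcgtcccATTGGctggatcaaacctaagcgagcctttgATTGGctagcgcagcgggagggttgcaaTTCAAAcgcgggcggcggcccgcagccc
Kif11, chr19:37450732-37450871, plus strand: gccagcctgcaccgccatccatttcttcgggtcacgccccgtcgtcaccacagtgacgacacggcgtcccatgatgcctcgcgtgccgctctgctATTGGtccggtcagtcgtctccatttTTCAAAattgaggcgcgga
Top2a, chr11:98885504-98885643, minus strand: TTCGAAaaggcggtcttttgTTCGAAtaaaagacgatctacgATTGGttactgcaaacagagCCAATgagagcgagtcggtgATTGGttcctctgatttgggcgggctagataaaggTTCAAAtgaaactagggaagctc
Ccnb1, chr13:101556496-101556581, minus strand: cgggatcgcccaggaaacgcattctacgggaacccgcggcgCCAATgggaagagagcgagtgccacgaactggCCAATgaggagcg

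In the first 5 of these promoters a CCAAT box, read as CCAAT or ATTGG, lies upstream of CHR letters. Cdk1 carries its single E2F match at position -131 from the start and CHR letters at positions -71 and -15. Ccnb1 carries CCAAT boxes at positions -99 and -67 and had no CHR letters in its window.

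**Figure D1:**
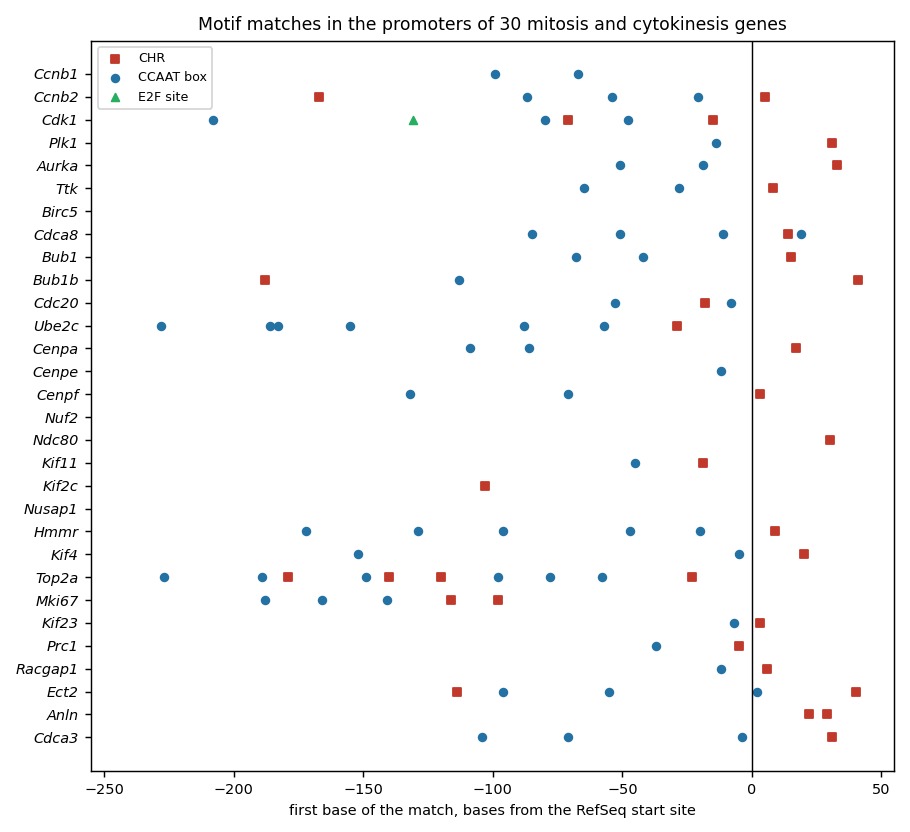
Positions of CHR letters (squares), CCAAT boxes (circles) and E2F sites (triangle) in the promoter windows of 30 members, in bases from the RefSeq start site (vertical line). CHR letters occur in 25 members, before the start in 11 of them, and CCAAT boxes lie before the start in 24.

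The mitotic genes were expressed at intermediate levels in all 3 libraries. Over the 35 members the median was 10.5 RPKM with overexpression, 11.4 RPKM with knockdown and 10.5 RPKM in the control. All measured genes, which are the 10172 genes with a mean of at least 1 RPKM, had medians of 6.11, 6.04 and 6.04 RPKM in the same libraries. Summed over the members, the level was 446 RPKM with overexpression, 484 RPKM with knockdown and 408 RPKM in the control, or 0.258%, 0.296% and 0.250% of the summed RPKM of each library. Ttk had the lowest level of the members, with 1.68 RPKM in overexpression, 1.88 RPKM in knockdown and 1.56 RPKM in control cells. Ube2c had 41.3 RPKM in overexpression and 44.0 RPKM in knockdown cells, where it was the highest member, and 40.4 RPKM in control cells, where Mki67 was higher at 42.2 RPKM.

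**Figure D2:**
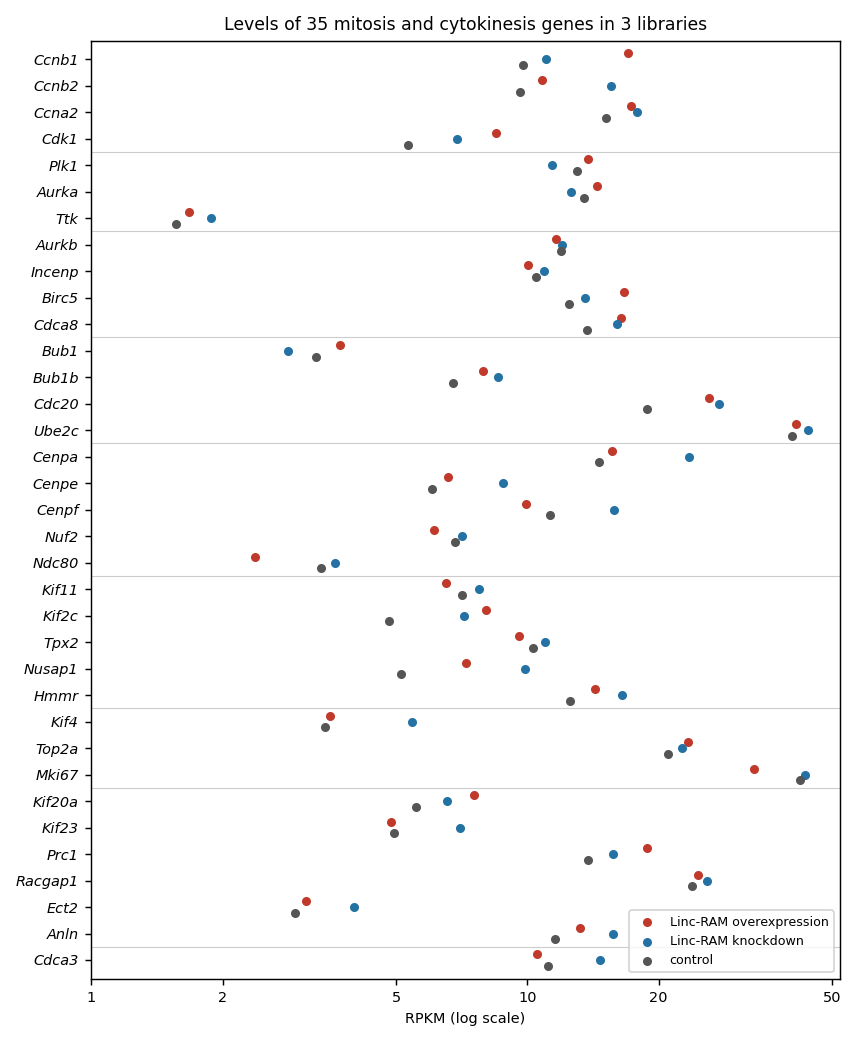
RPKM of the 35 members on a log scale, with 1 point per library (overexpression red, knockdown blue, control grey) and lines between groups of genes of like role. With overexpression the members run from Ttk, at 1.68 RPKM, to Ube2c, at 41.3 RPKM, and the 3 points of a gene lie less than 2-fold apart throughout.

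The first comparison asked whether overexpression of Linc-RAM was accompanied by a change of the mitotic genes. None of the 35 members was at least 2-fold higher in overexpression than in control cells, where 3.64% of the measured genes were, and none was at least 2-fold lower, where 3.47% were. At 1.5-fold, 3 members were higher (10.6% of measured genes) and 0 were lower (9.52% of measured genes), so the share of higher members was near that of all genes. The ratio was above 1 in 25 members and below 1 in 10, against 50.4% of measured genes above 1. The median log2 ratio of the members was 0.10, with a range from -0.50 for Ndc80 to 0.80 for Ccnb1, and the median of all measured genes was 0.00. Counting error was described by an exact 95% interval of the ratio computed from the recovered reads, which covers sampling of reads only and not variation between cultures. For 22 members these reads are lower estimates, the smallest that gave whole numbers. Their intervals can therefore be too wide, and the counts of intervals that leave out 1 can be too low, here and below. Reads of the other genes were recovered in the same way. The interval lay above 1 for 4 members (9.4% of measured genes), namely Ccnb1, Cdk1, Prc1 and Birc5, and below 1 for Mki67 alone (8.61% of measured genes). The members together had 3264 reads in overexpression and 7851 reads in control cells, a ratio of 1.01 per mapped read with an interval of 0.972 to 1.06. Mki67 held 27.8% of the members' recovered reads in the control, a share that can be too high. Without it the ratio was 1.10 (1.05 to 1.16). In sums of reads, here and below, genes with lower estimates count too little. The ratio itself can then be off, which the interval does not cover. The ratio of the members' summed RPKM was 1.09.

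The second comparison asked the same of the knockdown. No member was at least 2-fold higher in knockdown than in control cells, where 3.38% of measured genes were, and no member was at least 2-fold lower, where 4.19% were. Under 1 other scaling, to the total RPKM without the 50 most abundant genes, Nusap1 passed 2-fold higher. At 1.5-fold, 4 members were higher with knockdown (10.5% of measured genes) and 0 were lower (12.1% of measured genes), and the share of higher members was again near that of all genes. The ratio was above 1 in 32 members and below 1 in 3 (Plk1, Aurka and Bub1), against 48.4% of measured genes above 1. The median log2 ratio was 0.24, from -0.22 for Bub1 to 0.95 for Nusap1, and the median of all measured genes was -0.02. The interval lay above 1 for 8 members (8.99% of measured genes), which were Nusap1, Ccnb2, Cenpa, Kif4, Cenpe, Cenpf, Anln and Hmmr, and below 1 for 0 members (10.4% of measured genes). Summed over the members, 3348 reads in knockdown and 7851 reads in control cells gave a ratio of 1.16 (1.12 to 1.21). Without Mki67 it was 1.22 (1.16 to 1.28), and the ratio of the members' summed RPKM was 1.19.

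The third comparison set overexpression directly against knockdown. None of the members was at least 2-fold higher with overexpression (5.83% of measured genes) or at least 2-fold lower (5.11% of measured genes). At 1.5-fold, 1 member was higher (14.3% of measured genes) and 4 were lower (12.6% of measured genes). The ratio was above 1 in 11 members (9 or 10 under 2 other scalings) and below 1 in 24, against 52.1% of measured genes above 1, and the median log2 ratio was -0.12 for the members and 0.02 for all measured genes. Without the 8 members whose exons overlap another gene the members' median was -0.20, as it was after scaling to the total RPKM without the 50 most abundant genes. Ccnb1 was the single member with an interval above 1 (9.66% of measured genes), and Cenpf, Cenpa, Cenpe and Mki67 had intervals below 1 (8.18% of measured genes). The members together had 3264 reads in overexpression and 3348 reads in knockdown cells, a ratio of 0.870 (0.828 to 0.913). Without Mki67 it was 0.905 (0.856 to 0.956), and the ratio of the members' summed RPKM was 0.921.

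The spread among the members is described next. The SD of the log2 ratio over the 35 members was 0.29 for overexpression against control, 0.27 for knockdown against control and 0.33 for overexpression against knockdown. Over the 8664 genes within the members' range of mean RPKM it was 0.53, 0.54 and 0.63, but those genes had fewer reads, with medians of 39 in overexpression, 34 in knockdown and 94 in control cells against 61, 49 and 120 for the members. At this depth a change of 2-fold was not outside the counting interval for every member. Where the recovered reads are lower estimates the interval can be too wide, so the following counts can be too high. The interval reached 2-fold higher for 5 members and 2-fold lower for 2 with overexpression against control, and it reached 2-fold higher for 10 members and 2-fold lower for 0 with knockdown against control. With overexpression against knockdown it reached 2-fold higher for 4 members and 2-fold lower for 9.

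**Figure D3:**
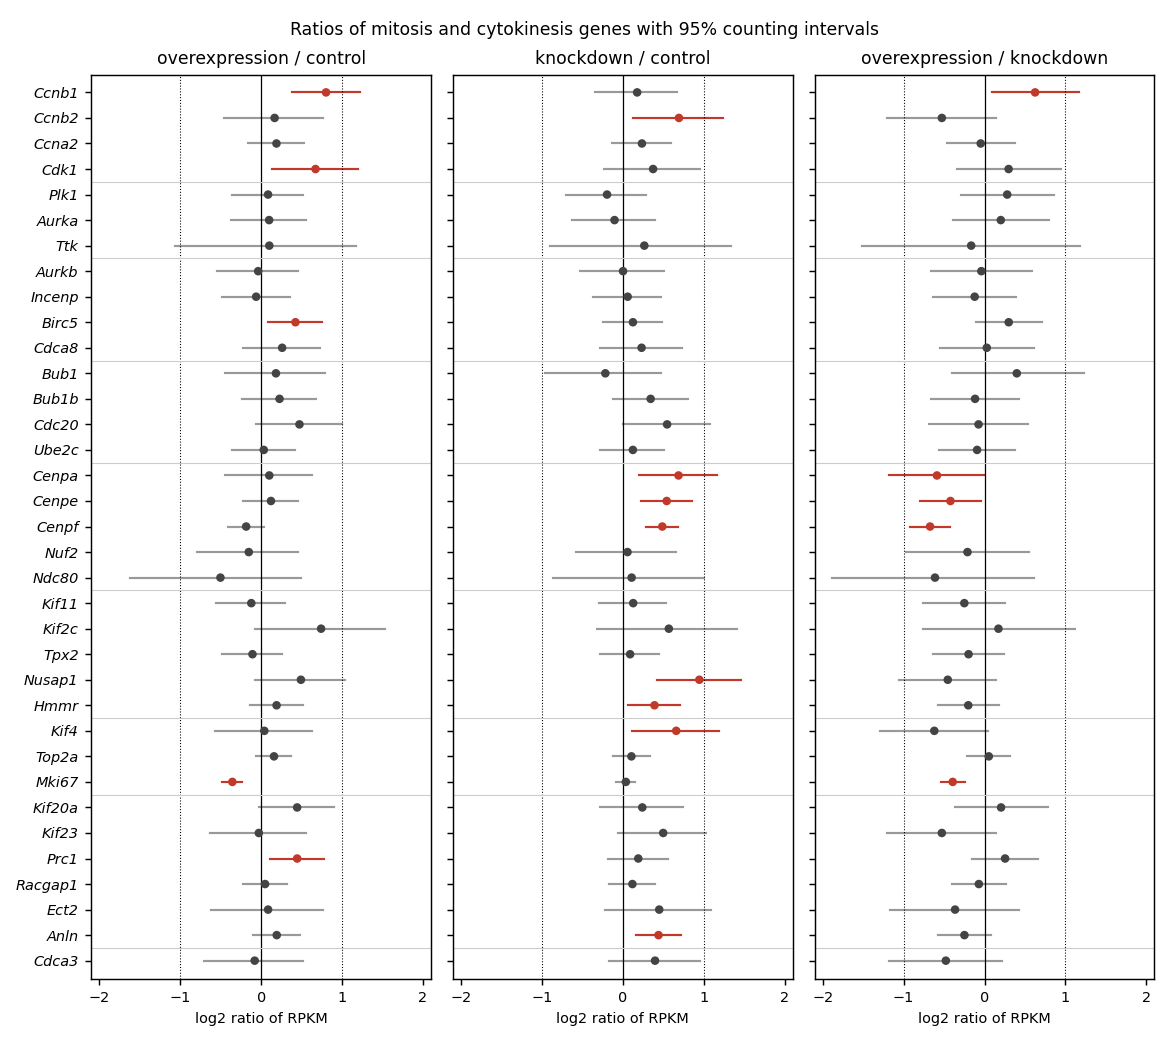
Log2 ratio of RPKM for each member in the 3 comparisons, with exact 95% counting intervals (bars), the value 0 (solid line) and 2-fold in either direction (dotted lines). Red marks intervals that exclude 0, which are 5 members for overexpression against control, 8 for knockdown against control and 5 for overexpression against knockdown. Bars of members whose recovered reads are lower estimates can be too wide.

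The cyclins and Cdk1 drive entry into mitosis. Ccnb1 encodes cyclin B1, the main partner of Cdk1 in mitosis (chromosome 13, 101548605 to 101556525 of mm9, minus strand), and had 17.0 RPKM in overexpression, 11.0 RPKM in knockdown and 9.76 RPKM in control cells. Its ratio was 1.74 for overexpression against control (1.30 to 2.33), 1.13 for knockdown against control (0.790 to 1.595) and 1.54 for overexpression against knockdown (1.07 to 2.25), so that its overexpression value stood above both other libraries. Cdk1, the catalytic subunit (chromosome 10, 68799383 to 68815686, minus strand), had 8.47 RPKM in overexpression, 6.89 RPKM in knockdown and 5.32 RPKM in control cells. Overexpression over control was 1.59 for Cdk1 (1.10 to 2.30), and its other intervals included 1. Ccnb2, a second B-type cyclin, showed another order, with 10.8 RPKM in overexpression, 15.5 RPKM in knockdown and 9.61 RPKM in control cells. Its ratio of knockdown to control was 1.62 (1.09 to 2.37), and that of overexpression to control was 1.12 (0.730 to 1.70). Ccna2, the cyclin A of S phase and G2, had 17.2, 17.8 and 15.1 RPKM in overexpression, knockdown and control cells, and its intervals all included 1. The reads of Cdk1 and Ccna2 are lower estimates, so whether those intervals include 1 is not settled. Over these 4 genes the ratio of summed reads was 1.35 for overexpression against control (1.16 to 1.57), 1.25 for knockdown against control (1.07 to 1.47) and 1.08 for overexpression against knockdown (0.901 to 1.29).

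The mitotic kinases differed little. Plk1, which acts at centrosomes, kinetochores and the midbody, had 13.8 RPKM in overexpression, 11.4 RPKM in knockdown and 13.0 RPKM in control cells. Aurka, the kinase of spindle poles, had 14.5, 12.6 and 13.5 RPKM in the same cells. Ttk, the Mps1 kinase that starts the spindle checkpoint, had 11 recovered reads in overexpression, 11 in knockdown and 25 in control cells. No member had fewer recovered reads, and Ndc80 also had 11 in overexpression, but those of Ttk are lower estimates. The Ttk interval for overexpression against control ran from 0.476 to 2.26. The intervals of all 3 kinases included 1 in each comparison, and the summed reads gave 1.07 (0.863 to 1.31) for overexpression and 0.926 (0.733 to 1.16) for knockdown against control. Together with Bub1, Plk1 and Aurka were the members with a lower level in knockdown than in control cells.

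The chromosomal passenger complex, which corrects wrong attachments of chromosomes and later moves to the central spindle, is represented by 4 genes. Aurkb, its kinase, had 11.6 RPKM in overexpression, 11.97 RPKM in knockdown and 11.95 RPKM in control cells. Incenp, its scaffold, had 10.0, 10.9 and 10.5 RPKM, and Cdca8, which encodes borealin, had 16.4, 16.05 and 13.7 RPKM in the same order of cells. Birc5, which encodes survivin, had 16.7 RPKM in overexpression, 13.6 RPKM in knockdown and 12.4 RPKM in control cells. Only for Birc5 did an interval within this complex leave out 1, with 1.34 for overexpression against control (1.06 to 1.68). The summed reads of the complex gave ratios of 1.14 (0.987 to 1.31) for overexpression and 1.08 (0.924 to 1.25) for knockdown against control.

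The checkpoint and the anaphase-promoting complex decide when sister chromatids part. Bub1 and Bub1b are checkpoint proteins of the kinetochore. Bub1 had 3.72 RPKM in overexpression, 2.82 RPKM in knockdown and 3.28 RPKM in control cells, and Bub1b had 7.90, 8.56 and 6.75 RPKM. Cdc20, the activator of the complex, had 26.1 RPKM in overexpression, 27.5 RPKM in knockdown and 18.8 RPKM in control cells. Cdc20 was among the more abundant members, and its ratios to control were 1.39 with overexpression (0.957 to 1.99) and 1.46 with knockdown (0.998 to 2.11). These intervals included 1, but they rest on lower estimates of the reads. The length used for Cdc20 was 892 bases, while 1868 exonic bases are annotated. More reads would narrow both intervals, so whether they include 1 is not settled. Ube2c, the ubiquitin-conjugating enzyme of the complex, differed by a few percent between libraries, with ratios of 1.02 (0.779 to 1.33) for overexpression and 1.09 (0.826 to 1.43) for knockdown against control. The summed reads of the 4 genes gave 1.14 (0.973 to 1.34) for overexpression and 1.17 (0.988 to 1.38) for knockdown against control.

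The 5 centromere and kinetochore genes were higher in knockdown than in both other libraries. Cenpf, a large kinetochore protein of G2 and mitosis (chromosome 1, 191464478 to 191511965, minus strand), had 9.91 RPKM in overexpression, 15.8 RPKM in knockdown and 11.3 RPKM in control cells. Its knockdown level was 1.402-fold that of the control (1.22 to 1.603), and its overexpression level was 0.627 of the knockdown level (0.528 to 0.744), based on 232 reads in overexpression, 330 reads in knockdown and 643 reads in control cells. Cenpf thus had the lowest ratio of overexpression to knockdown of all members. Cenpe, the kinesin that carries chromosomes to the metaphase plate, had 6.57 RPKM in overexpression, 8.79 RPKM in knockdown and 6.04 RPKM in control cells, with a ratio of knockdown to control of 1.46 (1.17 to 1.81). Cenpa, the histone H3 variant of centromeric nucleosomes, had 15.6 RPKM in overexpression, 23.5 RPKM in knockdown and 14.6 RPKM in control cells. For Cenpa the ratio of knockdown to control was 1.61 (1.15 to 2.25), and that of overexpression to knockdown was 0.665 (0.44 to 0.9998). Nuf2 and Ndc80, which are partners in the complex that binds microtubule ends, had intervals that included 1 in each comparison. Nuf2 had 6.12 RPKM in overexpression, 7.08 RPKM in knockdown and 6.81 RPKM in control cells, and Ndc80 had 2.37, 3.63 and 3.37 RPKM from 11, 15 and 38 reads. The summed reads of these 5 genes gave 0.938 (0.837 to 1.05) for overexpression against control, 1.39 (1.26 to 1.54) for knockdown against control and 0.673 (0.592 to 0.764) for overexpression against knockdown.

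The spindle motors and microtubule binders build and move the spindle. Nusap1, a microtubule-bundling protein (chromosome 2, 119444034 to 119476980, plus strand), had 7.22 RPKM in overexpression, 9.89 RPKM in knockdown and 5.14 RPKM in control cells. The ratio of knockdown to control was 1.93 (1.34 to 2.76), the largest among the members, and that of overexpression to control was 1.41 (0.952 to 2.05). Hmmr, a spindle pole protein also known as a hyaluronan receptor, had 14.3 RPKM in overexpression, 16.5 RPKM in knockdown and 12.5 RPKM in control cells, with a ratio of knockdown to control of 1.31 (1.05 to 1.64). Kif2c, a kinesin that takes microtubules apart, had 8.06 RPKM in overexpression, 7.15 RPKM in knockdown and 4.82 RPKM in control cells. The recovered reads of Kif2c, 24, 19 and 35, are lower estimates at a length of 1415 bases. Its ratio of overexpression to control of 1.67 had an interval of 0.951 to 2.89, which can be too wide, so whether it includes 1 is not settled. Kif11, the motor that separates spindle poles, had 6.50, 7.73 and 7.08 RPKM, and Tpx2, the activator of Aurora A, had 9.58, 11.0 and 10.3 RPKM in overexpression, knockdown and control cells. Intervals for Kif11 and Tpx2 included 1 in all comparisons. Over the 5 genes the summed reads gave 1.08 (0.946 to 1.23) for overexpression against control, 1.26 (1.11 to 1.43) for knockdown against control and 0.857 (0.736 to 0.997) for overexpression against knockdown.

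Among the genes of chromosome structure, Mki67 went its own way. It encodes the Ki-67 protein that coats mitotic chromosomes and is the usual marker of proliferating cells (chromosome 7, 142881471 to 142908062, minus strand), and it had 33.0 RPKM in overexpression, 43.3 RPKM in knockdown and 42.2 RPKM in control cells. With 700 reads in overexpression, 820 in knockdown and 2183 in control cells it was the most deeply covered member, and its ratio was 0.781 for overexpression against control (0.717 to 0.851), 0.761 for overexpression against knockdown (0.687 to 0.843) and 1.03 for knockdown against control (0.946 to 1.11). Mki67 was therefore lower in overexpression cells in both comparisons by more than counting error, while 25 of the 35 members had a ratio of overexpression to control above 1. Top2a, the topoisomerase that untangles sister chromatids, had 23.4 RPKM in overexpression, 22.6 RPKM in knockdown and 21.0 RPKM in control cells. Its intervals included 1, but its reads are lower estimates, so this is not settled. Kif4, the chromokinesin that also shapes the central spindle, had 3.53 RPKM in overexpression, 5.42 RPKM in knockdown and 3.43 RPKM in control cells, with a ratio of knockdown to control of 1.58 (1.08 to 2.28). The summed reads of the 3 genes, most of them from Mki67, gave 0.855 (0.795 to 0.920) for overexpression against control, 1.05 (0.980 to 1.13) for knockdown against control and 0.813 (0.745 to 0.886) for overexpression against knockdown.

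The 6 genes of the central spindle and cytokinesis were all higher in knockdown than in control cells, as were 32 of the 35 members. Prc1, which bundles the microtubules of the central spindle, had 18.8 RPKM in overexpression, 15.7 RPKM in knockdown and 13.8 RPKM in control cells, and a ratio of overexpression to control of 1.36 (1.08 to 1.71). Anln, which encodes the contractile ring scaffold anillin, had 13.2 RPKM in overexpression, 15.7 RPKM in knockdown and 11.6 RPKM in control cells, and a ratio of knockdown to control of 1.36 (1.12 to 1.65). Kif20a and Kif23 are kinesins of the central spindle, and Kif23 forms the centralspindlin complex with Racgap1. Kif20a had 7.54, 6.54 and 5.54 RPKM and Kif23 had 4.85, 6.996 and 4.95 RPKM in overexpression, knockdown and control cells. Racgap1 had 24.6, 25.8 and 23.8 RPKM, and Ect2, the exchange factor that activates RhoA at the cleavage furrow, had 3.11, 4.01 and 2.94 RPKM in these cells. For Kif20a, Kif23, Racgap1 and Ect2 the intervals included 1 in every comparison, but the reads of all 4 are lower estimates. The interval was 0.981 to 1.87 for Kif20a in overexpression against control and 0.963 to 2.05 for Kif23 in knockdown against control. Whether the intervals of these genes include 1 is therefore not settled. The 6 genes together gave 1.15 (1.04 to 1.28) for overexpression against control, 1.22 (1.10 to 1.35) for knockdown against control and 0.945 (0.837 to 1.07) for overexpression against knockdown. Cdca3, an adaptor that promotes mitotic entry, had 10.5 RPKM in overexpression, 14.7 RPKM in knockdown and 11.1 RPKM in control cells. Its intervals included 1, but its reads are lower estimates too.

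Some values share their position with another gene. Exons of 8 members overlap those of another annotated gene, and the strand of counting was not given in the sources used here, so reads of these pairs cannot be told apart within the shared bases. Ube2c shares 592 exonic bases with Tnnc2, a fast muscle troponin on the opposite strand, which had 1.37 RPKM in overexpression cells and was listed at 0 in knockdown and control cells. Kif20a shares 1259 bases with Cdc23 on the opposite strand, which had 6.78 RPKM in overexpression, 5.41 RPKM in knockdown and 6.13 RPKM in control cells. Nusap1 shares 172 bases with Oip5, which had 3.66, 3.42 and 2.88 RPKM, and Kif4 shares 832 bases with Pdzd11, which had 11.2, 15.2 and 12.5 RPKM in these cells. The other members concerned were Ccna2, Cdca8, Cdc20 and Top2a.

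Other cell cycle genes were examined for comparison. Of 117 further mitosis genes, 110 were measured, with a median log2 ratio of 0.06 for overexpression against control, 0.08 for knockdown against control and 0.01 for overexpression against knockdown. In the first comparison 63 were higher and 47 lower (50.4% of measured genes higher). There 1 gene was at least 2-fold higher (3.64% of measured genes) and 1 lower (3.47%). In the second 63 were higher and 47 lower (48.4% of measured genes higher). At 2-fold 1 was higher (3.38%) and 1 lower (4.19%). In the third 56 were higher and 54 lower (52.1% of measured genes higher). At 2-fold 4 were higher (5.83%) and 4 lower (5.11%). Cks2, a small Cdk-binding protein, had 16.4 RPKM in overexpression, 7.67 RPKM in knockdown and 8.43 RPKM in control cells. It had few recovered reads, and its ratio of overexpression to control of 1.95 had an interval of 0.833 to 4.46. The intervals of Anapc13, a subunit of the anaphase-promoting complex (1.90, 0.872 to 4.03, overexpression against control), and Ncaph, a condensin subunit (1.91, 0.734 to 5.54, overexpression against knockdown), likewise included 1. The recovered reads of Cks2, Anapc13 and Ncaph can be lower estimates. Their intervals can then be too wide, and whether they include 1 is not settled. Tacc3, a spindle protein that binds clathrin, had 26.1 RPKM in overexpression, 30.02 RPKM in knockdown and 14.8 RPKM in control cells, and its ratio to control was 1.76 with overexpression (1.41 to 2.20) and 2.03 with knockdown (1.63 to 2.53). Anapc11, a catalytic subunit of the anaphase-promoting complex, had 13.7 RPKM in overexpression, 7.46 RPKM in knockdown and 13.4 RPKM in control cells, a ratio of knockdown to control of 0.558 (0.401 to 0.761). Zwint, a kinetochore protein, had 5.86, 4.38 and 8.08 RPKM in the same cells, with a ratio of knockdown to control of 0.541 (0.326 to 0.861). The wider set of mitosis genes thus held members on both sides of the control.

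The genes of DNA replication, which act in S phase, were also counted. Of 50 genes, 47 were measured. In overexpression against control 32 were higher and 15 lower (50.4% of measured genes higher) with a median log2 ratio of 0.15, and 2 were at least 2-fold higher (3.64% of measured genes). In knockdown against control 12 were higher and 35 lower (48.4% of measured genes higher) with a median of -0.32, where the 35 mitotic genes had a median of 0.24. In this comparison 6 were lower by 2-fold or more (4.19% of measured genes), including 1 gene with no reads in the knockdown library. The summed reads gave 0.789 (0.737 to 0.844). Directly compared, overexpression over knockdown was above 1 in 39 of 46 replication genes (52.1% of measured genes), with a median log2 ratio of 0.40, where the mitotic genes had a median of -0.12. Mcm5, a subunit of the replicative helicase, had 5.97 RPKM in overexpression, 3.58 RPKM in knockdown and 7.29 RPKM in control cells, a ratio of knockdown to control of 0.491 (0.300 to 0.769). Mcm3 had a ratio of knockdown to control of 0.602 (0.385 to 0.912). Rfc2, a subunit of the clamp loader, was lower than the control in both lines, with ratios of 0.640 for overexpression (0.399 to 0.994) and 0.552 for knockdown (0.323 to 0.899). Mcm4 of the same helicase had 12.04 RPKM in overexpression, 5.79 RPKM in knockdown and 8.47 RPKM in control cells, a ratio of overexpression to knockdown of 2.08 (1.42 to 3.11). Rrm2, the small subunit of ribonucleotide reductase, had 28.3 RPKM in overexpression, 19.1 RPKM in knockdown and 15.7 RPKM in control cells, a ratio of overexpression to control of 1.80 (1.29 to 2.51). Fen1, the flap endonuclease of lagging-strand synthesis, had a ratio of overexpression to knockdown of 1.68 (1.14 to 2.501). For Mcm7 the ratio was 1.62 for overexpression against control (0.806 to 3.19) and 1.78 for overexpression against knockdown (0.720 to 4.81). The Mcm7 intervals included 1, but its recovered reads (16, 8 and 24 in overexpression, knockdown and control cells) can be lower estimates. Its intervals can therefore be too wide, and whether they include 1 is not settled. No test of the difference between the lists was made.

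A list named cell cycle exit genes completed the comparison. It held Cdk inhibitors and the RB family, but also the D and G cyclins, Btg1, Btg2 and Gadd45a. Its counts are therefore not those of Cdk inhibitors alone. Of 18 genes 16 were measured, and their median log2 ratio was 0.22 for overexpression against control, 0.01 for knockdown against control and 0.02 for overexpression against knockdown. In overexpression against control 13 were higher and 3 lower (50.4% of measured genes higher), and in knockdown against control 8 were higher and 8 lower (48.4% of measured genes higher). The medians near 0 hide a wide spread. The log2 ratio of knockdown to control ran from -5.16 to 2.45. In overexpression against knockdown 9 were higher and 7 lower (52.1% of measured genes higher). There 5 were at least 2-fold higher (5.83% of measured genes) and 1 was at least 2-fold lower (5.11% of measured genes). Cdkn1a, which encodes the Cdk inhibitor p21, had 93.8 RPKM in overexpression, 38.9 RPKM in knockdown and 61.3 RPKM in control cells, a ratio of 1.53 for overexpression against control (1.35 to 1.74) and 0.635 for knockdown against control (0.527 to 0.760). Btg2, an antiproliferative gene, had 10.8 RPKM in overexpression, 3.80 RPKM in knockdown and 5.82 RPKM in control cells. Rbl2, which encodes the p130 subunit of the DREAM complex, had 6.02 RPKM in overexpression, 8.61 RPKM in knockdown and 4.35 RPKM in control cells, a ratio of knockdown to control of 1.98 (1.46 to 2.67). Cdkn2c, which encodes the Cdk inhibitor p18, had 12.02 RPKM in overexpression, 14.4 RPKM in knockdown and 8.46 RPKM in control cells, a ratio of knockdown to control of 1.71 (1.04 to 2.75). Ccnd3, which encodes cyclin D3, had 42.2 RPKM in overexpression, 19.8 RPKM in knockdown and 25.1 RPKM in control cells, a ratio of overexpression to control of 1.68 (1.399 to 2.02). Of the genes named from this list, Cdkn1a, Btg2 and Ccnd3 were highest with overexpression and lowest with knockdown, while Rbl2 and Cdkn2c were highest with knockdown and lowest in the control.

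**Figure D4:**
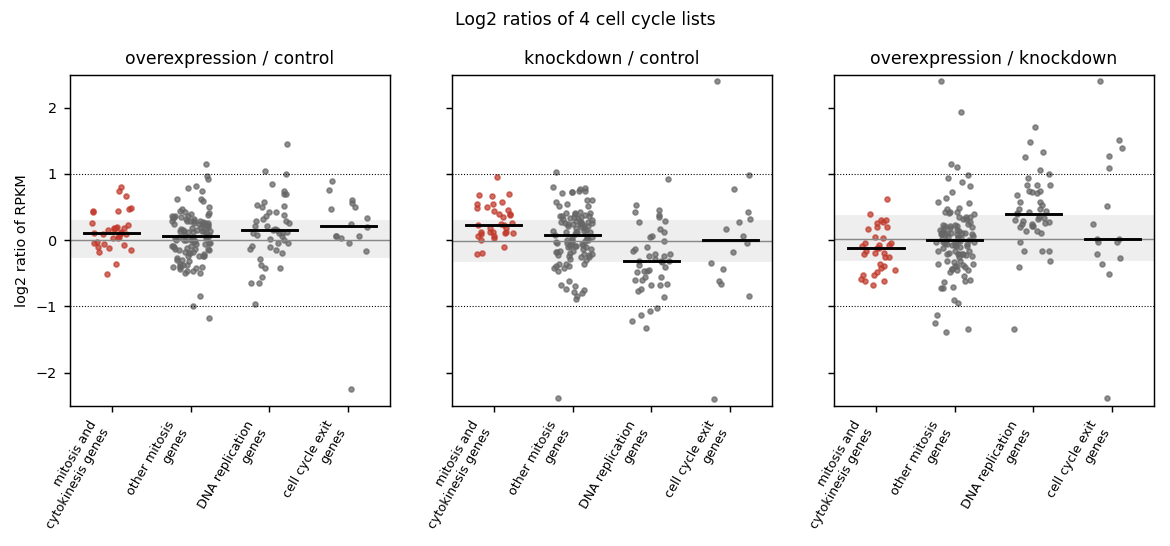
Log2 ratio of RPKM in the 3 comparisons for the 35 mitosis and cytokinesis genes (red) and for the measured genes of 3 further lists (grey), with the median of each list (black bar), the middle range of all measured genes (quartiles, shaded) and 2-fold in either direction (dotted lines). Points beyond the axis are drawn at its edge and a gene listed at 0 is not drawn. Medians for knockdown against control were 0.24 for the mitotic genes and -0.32 for the DNA replication genes.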

How the data were processed

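Polyadenylated RNA of 3 C2C12 lines, 1 library each, was sequenced. Values per gene were deposited by the authors in RPKM, from reads aligned to mm9 by TopHat (version 1.4.1, from the processing notes of the submitters). The annotation and strand of counting were not given in the sources used here. Members and lists were chosen with earlier results of these data known. Symbols were matched exactly, and ratios of RPKM were taken without a pseudocount over genes with a mean of at least 1 RPKM. Whole reads were recovered from RPKM, GENCODE transcript lengths and the total at which most genes gave whole numbers; 13 members fitted an annotated length, and for 22 the smallest length giving whole reads was used, so their reads are lower estimates. Intervals are exact 95% binomial (Clopper-Pearson) intervals for the recovered reads and cover counting error only. Where the reads are lower estimates the intervals can be too wide. Counts of intervals that leave out 1 can then be too low, and counts of intervals that reach 2-fold too high. Sums of reads give genes with lower estimates too little weight, so ratios of summed reads can be off as well. With 1 library per condition no test between conditions was possible, and the threshold was 2-fold. Genes named outside the members were the 3 with the largest change among genes of each list with a mean of at least 5 RPKM and no value of 0, in each comparison. The recovery was tested on simulated data. Alternatives were other pseudocounts, minimum levels, thresholds and scalings. Python 3.11.15, numpy 2.4.6, pandas 2.3.3 and scipy 1.17.1 were used.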

Additional observations from a re-analysis of the deposited data

How the results depend on the processing

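Alternatives were computed for the counts, medians and sums of the members. Of these, 81 stayed within 1.5 times a count or within the counting error of the summed reads, and 9 did not. Part of the 81 could not have differed. All members had a mean of at least 1 RPKM, so leaving out this filter changed nothing. With no member past 2-fold, a higher minimum level, a pseudocount or a required interval could not add to the counts. At a threshold of 1.5-fold, 3 members were higher with overexpression than in the control (Ccnb1, Kif2c and Cdk1), 4 were higher with knockdown (Nusap1, Ccnb2, Cenpa and Kif4), and overexpression against knockdown had 1 higher and 4 lower, beside 10.6%, 10.5%, 14.3% and 12.6% of measured genes past that threshold in the same directions. Scaling to the total RPKM without the 50 most abundant genes put 1 member (Nusap1) at least 2-fold higher with knockdown and moved the median of overexpression against knockdown to -0.20. That median was also -0.20 without the members whose exons overlap another gene. Without Mki67 the ratio of summed reads was 1.10 for overexpression against control and 1.22 for knockdown against control. These last alternatives were chosen after seeing the data, and the cause of each shift was not tested. Of 630 alternatives for single members, 3 crossed a ratio of 1, all for overexpression against knockdown. Cdca8, 1.02 without rescaling, was 0.991 with upper-quartile scaling and 0.967 without the 50 most abundant genes. Top2a, 1.04 without rescaling, was 0.984 without those genes. A pseudocount added to both libraries cannot carry a ratio across 1, so only the rescaled values among the 630 could cross. No paired analysis was possible because each condition has 1 library, and for the same reason no library could be left out. Variation between cultures is unknown.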
